A study of Mus musculus with 12 samples.

Results

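The genotype by time interaction of a Trmt61a conditional knockout asks, for each gene, whether the change from 0 h to 48 h differed between knockout and wild-type CD8 T cells. All 12 of the 12 libraries of the series enter it. They are RNA sequencing libraries made from total RNA of spleen CD8 T cells (C57BL/6 mice), in 4 groups of 3: wild type (WT) at 0 h, WT at 48 h, Trmt61A-cKO (cKO) at 0 h and cKO at 48 h. The interaction of a gene is its log2 change in cKO minus its log2 change in WT, so a positive value means that the gene ended relatively higher at 48 h in cKO. The labels name no Cre driver, no floxed control allele, no treatment between 0 h and 48 h, no age and no pooling of animals, and they do not say that the same number at both times is the same mouse. The labels do not say whether libraries came from separate cultures or animals, so p-values cover only the spread among libraries, which may be partly technical.

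TRMT61A is the catalytic subunit of the enzyme that, with TRMT6, places N1-methyladenosine in the T loop of transfer RNAs, a mark known for stabilising the initiator methionine transfer RNA and for supporting translation. When naive CD8 T cells are activated they leave quiescence: genes of homing and quiescence fall, and those of glycolysis, sterol and fatty acid synthesis, ribosome production and the cell cycle rise. An interaction term reads whether such a programme moved further, or less far, in cells of 1 genotype.

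Total counts ran from 34341847 to 40270659 per library, and 12404 of 16352 genes were tested. Trmt61a itself stood at 27.4, 29.8 and 26.3 CPM, which are counts scaled by library size, in WT at 0 h and at 42.0, 38.2 and 34.8 CPM across WT at 48 h. In cKO it stood at 28.1, 0.807 and 1.88 CPM at 0 h and at 42.5, 0.956 and 1.10 CPM at 48 h. Both libraries labelled cKO replicate 1 thus held Trmt61a at 101% and 111% of the WT mean of their time, while the other cKO libraries held 2.49% to 6.76%. The counts go against the label of those libraries. Groups are used here as labelled (the 12-library fit), and beside each result stands the value without both libraries labelled cKO replicate 1 (the 10-library fit, with 2 cKO libraries at each time). CD8 identity was clear at both times: Cd8a, the CD8 alpha chain, ranged from 1337 to 1542 CPM at the start and from 666 to 747 CPM at the end. The Y-linked genes Uty, Kdm5d and Eif2s3y had no counts in either library of WT replicate 3 and had counts in all other libraries. WT replicate 3 and the other WT replicates were therefore not from the same animal. Every cKO library held Y-linked transcripts and WT replicate 3 held none, so sex, as read from these genes, was not balanced between the genotypes. The part of sex in the interactions was not tested.

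In the 12-library fit, few genes responded to time differently in the 2 genotypes. A gene was called when edgeR's adjusted p for the interaction was under 0.05. The interaction was positive for 13 genes, which is 0.105% of the genes tested, and negative for 1 gene, which is 0.00806%. Without adjustment, 2073 genes had p under 0.05, of which 1213 were positive (9.78% of genes tested) and 860 negative (6.93%). For scale, time alone changed most genes in both genotypes: 36.9% of tested genes rose and 38.4% fell in WT, and 36.4% rose and 36.2% fell in cKO. Of the 13 positive genes, 12 fell in both genotypes, and they fell less in cKO. Pou2af1 fell in WT and rose in cKO. Galk1, the negative gene, rose in both and rose less in cKO. The difference between genotypes was larger at 48 h than at 0 h for 13 of the 14.

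In the 10-library fit, which tested 12643 genes, the interaction was positive for 446 genes (3.53%) and negative for 422 (3.34%). It included all 14 genes of the 12-library fit, in the same direction. All 868 called genes had the same sign in the 12-library fit, and 725 of them had an unadjusted p under 0.05 there. The most common pattern among the negative genes was a rise in both genotypes that was smaller in cKO, with 295 of 422 genes, and a further 70 rose in WT without passing the test in cKO. The positive genes were mostly a mirror of this: 253 of 446 fell in both genotypes and less so in cKO, and 83 fell in WT without passing the test in cKO. Opposite directions were rare. In all, 16 genes fell in WT and rose in cKO, and 7 rose in WT and fell in cKO. In this fit 37.2% of all tested genes rose and 38.7% fell in WT over time, against 33.6% and 32.8% in cKO. The difference lay mainly at the later time, where it was larger than at 0 h for 748 of the 868 genes. At 48 h itself, 381 of the 446 positive genes were also higher in cKO than in WT and 360 of the 422 negative genes lower, where the fit called 8.96% of all genes higher and 8.78% lower. These last counts share their 48 h libraries with the interaction and are a description.

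**Figure D1:**
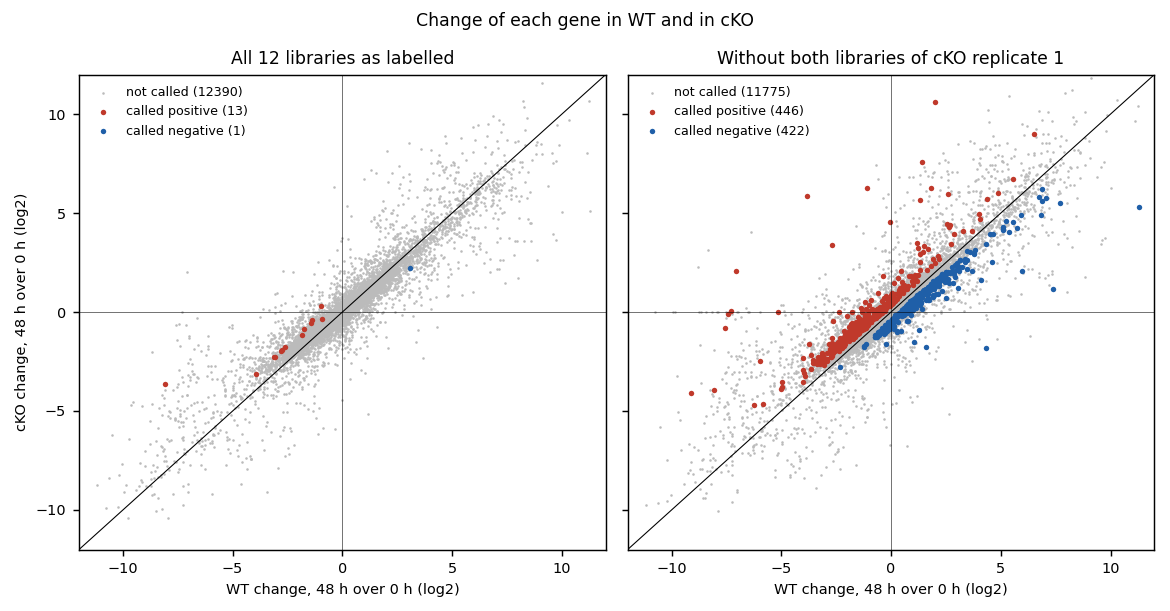
Change from 0 h to 48 h of each tested gene in WT (horizontal axis, log2) and in cKO (vertical axis, log2), with all 12 libraries as labelled on the left and without both libraries labelled cKO replicate 1 on the right. Points above the diagonal have a positive interaction. The 13 positive genes on the left lie on the falling side of the WT axis, and the 446 positive and 422 negative genes on the right line both sides of the diagonal.

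The number of calls rested on single libraries. Leaving out only the 48 h library labelled cKO replicate 1 raised the calls to 522 positive and 445 negative, whereas leaving out only its 0 h library gave 4 and 3. No gene was called without the 0 h library of WT replicate 3, without the 48 h library of WT replicate 2, without the 48 h library of WT replicate 3 or without the 48 h library of cKO replicate 2. Nor was any without both libraries of WT replicate 3. Without the 4 single libraries, 1839, 2030, 1528 and 1424 genes in that order had an unadjusted p under 0.05. Only 1 positive gene was called without the 0 h library of cKO replicate 2, and likewise without that of cKO replicate 3. The other single libraries gave 15 positive and 4 negative calls without WT replicate 1 at 0 h, 4 and 1 without WT replicate 2 at 0 h, 26 and 0 without WT replicate 1 at 48 h, and 17 and 7 without cKO replicate 3 at 48 h. All 14 genes of the 12-library fit kept their sign and an unadjusted p under 0.05 in each of these fits. With DESeq2 on all 12 libraries, 316 genes were positive and 133 negative of 10958 tested. Of its calls 70.4% were positive, against 92.9% with edgeR and 51.4% in the 10-library fit. The DESeq2 counts of gene lists below stand beside these totals.

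**Figure D2:**
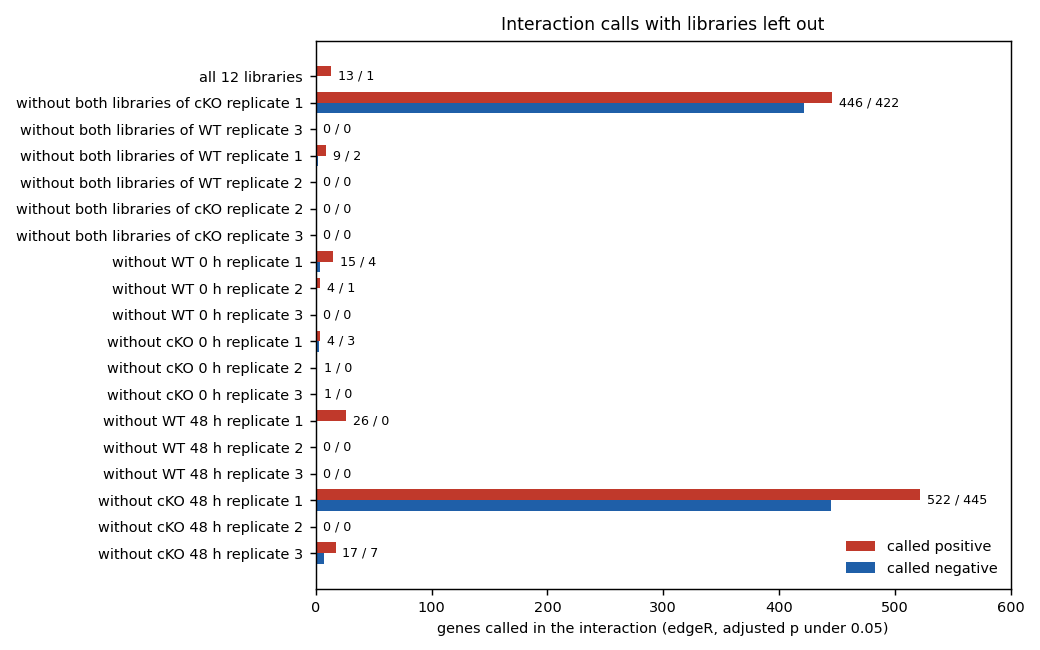
Number of genes called positive (red) and negative (blue) in the interaction with all 12 libraries and with the libraries named on the vertical axis left out. The numbers beside the bars are positive and negative calls. Bars are long only where the 48 h library labelled cKO replicate 1 is absent, at 446 and 422 without both of its libraries and at 522 and 445 without the 48 h library alone.

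Among the genes with a mean of at least 5 CPM that were called in the 12-library fit, interactions ran from 0.54 to 1.30 in the positive direction, with adjusted p from 0.0301 to 0.0462. At 48 h all 3 cKO libraries lay above all 3 WT libraries for each of the 13 positive genes, and below them for Galk1. Over all tested genes, 13.2% had the first of these patterns and 11% the second. At 0 h the 2 groups overlapped for 9 of the 14. The library labelled cKO replicate 1 was the cKO library closest to the WT mean at 48 h for 11 of the 14 genes, and cKO replicate 3 for the other 3.

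Of the 14 genes, 2, S1pr1 and Klf3, are in the list of naive and memory T cell genes. S1pr1, the sphingosine-1-phosphate receptor by which T cells leave lymphoid organs, stood at 437, 435 and 498 CPM across WT and 454, 470.4 and 439 CPM across cKO at 0 h. At 48 h it stood at 33.5, 29.8 and 25.7 CPM across WT and at 50.1, 56.6 and 50.6 CPM across cKO. The groups overlapped at 0 h and were apart at 48 h, after a 15.4-fold fall in WT and an 8.67-fold fall in cKO. The interaction was 0.83 ± 0.13 (SE; edgeR adjusted p = 0.0301) with 12 libraries and 0.86 ± 0.15 (adjusted p = 0.00921) with 10. Klf3, a Krüppel-like repressor of transcription, fell from 262, 256 and 306 CPM to 33.2, 29.6 and 34.6 CPM across WT. In cKO it fell from 251, 246 and 248 CPM to 47.9, 57.8 and 48.9 CPM. Every cKO library was thus slightly below WT at 0 h and above it at 48 h, with an interaction of 0.81 ± 0.13 (adjusted p = 0.0301). Itga4, the alpha 4 integrin chain used in homing, fell from 641, 669 and 614 CPM to 96.9, 94.2 and 86.2 CPM across WT. In cKO it fell from 565, 489 and 642 CPM to 139, 161 and 140.2 CPM, and its interaction was 0.85 ± 0.13 (adjusted p = 0.0301). The order was that of S1pr1, with overlapping groups at 0 h and cKO above WT at 48 h.

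Kmt2a, which methylates histone H3 at lysine 4, held 509.8, 564 and 702 CPM across WT and 491, 445 and 468 CPM across cKO at 0 h. At 48 h it held 234, 250.4 and 191 CPM across WT and 346, 395 and 321 CPM across cKO. Its order therefore turned, from cKO below WT at 0 h to cKO above WT at 48 h, and the spread of the WT libraries was wide at both times. It fell 2.63-fold in WT and 1.32-fold in cKO, an interaction of 0.99 ± 0.17 (edgeR adjusted p = 0.0411). Zbtb4, a zinc finger repressor that binds methylated DNA, fell 8.80-fold in WT and 4.86-fold in cKO, from 114 to 13.0 CPM on average in WT and from 108 to 22.1 CPM across cKO. Its interaction was 0.86 ± 0.14 with 12 libraries. Zfp831, a zinc finger gene, fell 6.04-fold in WT and 3.36-fold in cKO and held 14.5 to 17.4 CPM across WT and 24.7 to 30.4 CPM across cKO at 48 h.

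The membrane and signalling genes behaved alike. Gbp8, of the guanylate-binding protein family, fell 2.71-fold in WT and 1.46-fold in cKO. Pag1, a membrane adaptor that recruits the inhibitory kinase Csk, fell 3.53-fold in WT and 2.25-fold in cKO, with an interaction of 0.65 ± 0.11 (edgeR adjusted p = 0.0401). For Pag1, as for Klf3, Kmt2a and Lrch3, every cKO library was below every WT library at 0 h and above it at 48 h. Tmem71, a transmembrane protein gene, fell 6.79-fold in WT and 3.84-fold in cKO, and Lrch3, a leucine-rich repeat gene, 1.89-fold and 1.30-fold.

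Pou2af1 had the highest interaction of the genes above 5 CPM, 1.30 ± 0.18 (edgeR adjusted p = 0.0301; 1.35 ± 0.20 with 10 libraries). It encodes a coactivator of octamer-binding factors that is best known from B cells. Its level was 30.6, 26.0 and 28.4 CPM across WT and 22.8, 27.2 and 20.7 CPM across cKO at 0 h. At 48 h it was 16.2, 13.5 and 13.1 CPM across WT and 26.0, 33.4 and 28.4 CPM across cKO. All WT libraries were therefore lower at 48 h than at 0 h, and the cKO libraries at 48 h lay within or above the 0 h range of WT. Summed markers of B cells fell over time in both genotypes, unlike Pou2af1 in cKO. The summed level of 16 B cell markers was 272 to 496 CPM across WT and 242 to 290 CPM across cKO at 0 h. At 48 h it was 81.0 to 113 CPM across WT and 102 to 116 CPM across cKO, so that the groups overlapped. The part of B cells in the value of Pou2af1 was not tested. In these bulk libraries fewer cells of a type and less RNA per cell cannot be told apart.

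Galk1, the galactokinase that starts galactose use, was the only gene called with a smaller rise in cKO. It stood at 18.2, 21.9 and 17.5 CPM across WT and at 25.8, 32.6 and 28.4 CPM across cKO at 0 h, and at 164.1, 162 and 164.2 CPM across WT and 143, 117 and 140.2 CPM across cKO at 48 h. All cKO libraries were above WT at the start and below it at the end. The rise was 8.52-fold in WT and 4.61-fold in cKO, an interaction of -0.89 ± 0.15 (edgeR adjusted p = 0.0401). Another called gene, A530021J07Rik, falls outside the rule for naming genes because of its low level, and was named after its values were seen. Its counts were 178, 238 and 179 in WT and 153, 139 and 218 in cKO at 0 h. At 48 h they were 0, 1 and 1 in WT and 21, 15 and 11 in cKO, so that its call rests on very few reads in WT. Leaving out each of the 12 libraries in turn kept the call of these 14 genes in 2 to 7 of 12 fits, 7 for Pou2af1 and 2 for Lrch3, and the highest adjusted p in those fits was 0.0829 for Pou2af1 and 0.122 to 0.154 for the others.

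**Figure D3:**
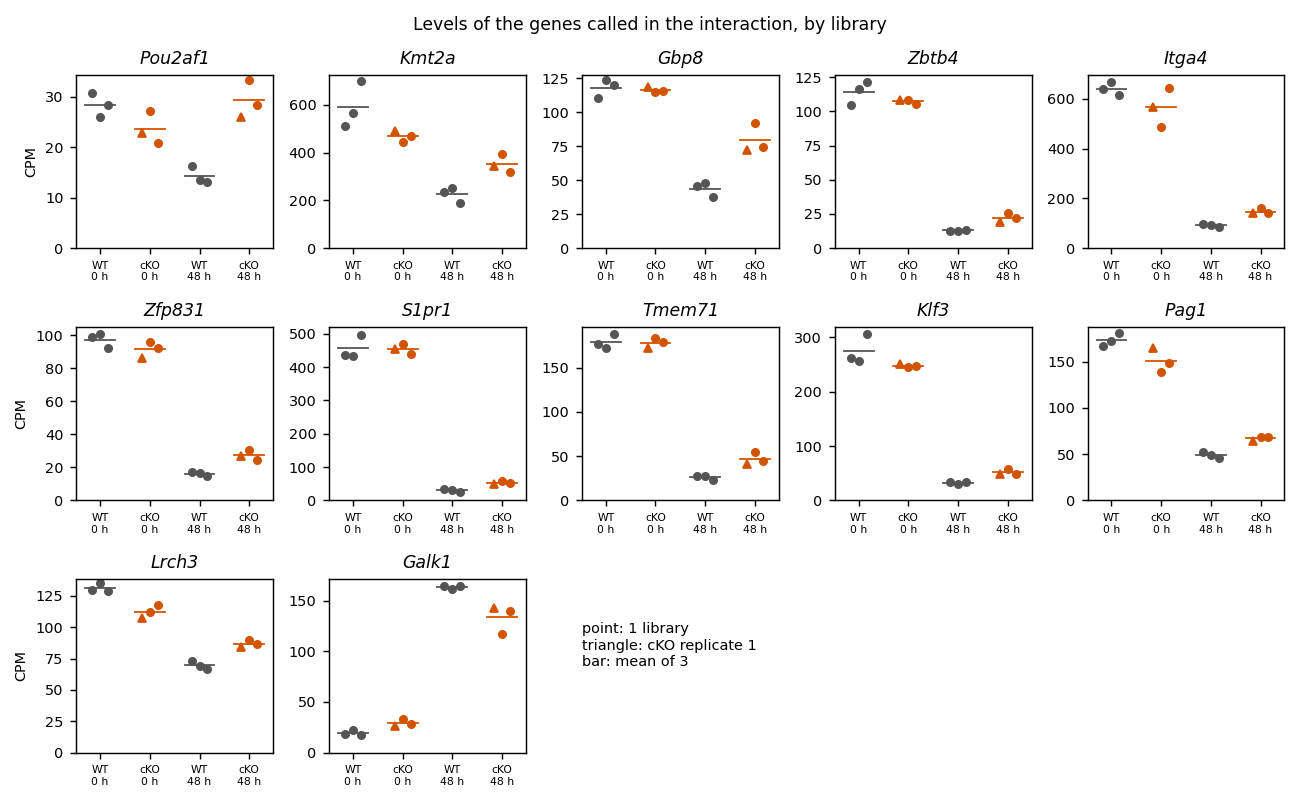
Level in CPM (vertical axis, from 0) of 12 of the 13 genes called in the 12-library interaction at a mean of at least 5 CPM, by group. Points are libraries, triangles are the libraries labelled cKO replicate 1, and bars are means of 3 libraries. At 48 h the cKO points lie above the WT points in every panel except that of Galk1, where they lie below.

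Of the homing and quiescence list (genes of naive and memory T cells), 2 of 32 members were called positive with 12 libraries (0.105% of all tested genes) and none negative, and 15 had an unadjusted p under 0.05 in the positive direction (9.78% of all tested genes). The median interaction of the list was 0.22, beside 0.012 over all tested genes. With 10 libraries 7 of 32 were positive (3.53% of all tested genes), with a median of 0.26 beside 0.020 over all genes. Besides S1pr1 and Klf3, Txnip, an inhibitor of glucose uptake that is abundant in resting cells, had an interaction of 0.90 ± 0.19 (edgeR adjusted p = 0.0219) with 10 libraries. It held 128, 155 and 131 CPM across WT and 148, 220.2 and 225 CPM across cKO at 48 h, with the library labelled cKO replicate 1 inside the WT range. Bcl2, the survival factor, had an interaction of 0.69 ± 0.15 (adjusted p = 0.0214) with 10 libraries and 0.49 ± 0.20 (adjusted p = 0.242) with 12. Foxo1, Cd28 and Ccr9 were the other positive members.

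Genes of chromatin regulation, a list led by the histone H3 lysine 4 methyltransferases, had a positive interaction in 28 of 34 members with 12 libraries, where Kmt2a alone was called and 17 had an unadjusted p under 0.05 in the positive direction. The median was 0.30, beside 0.012 over all tested genes. Of all tested genes 0.105% were called positive and 9.78% were positive at that unadjusted threshold. With 10 libraries 6 of 34 were called, all positive (3.53% of all tested genes): Kmt2a, Kmt2c, Kmt2d, Crebbp, Setd2 and Smarca2. Kmt2c, a second enzyme of the same family, held 106, 117 and 89.2 CPM across WT and 146, 167 and 139.7 CPM across cKO at 48 h, with an interaction of 0.88 ± 0.18 (edgeR adjusted p = 0.0195). Crebbp, a histone acetyltransferase, held 64.0, 64.4 and 54.7 CPM across WT and 78.1, 84.0 and 83.0 CPM across cKO at 48 h, with 0.67 ± 0.13 (adjusted p = 0.0158). Smarca2, a remodelling ATPase, had 0.54 ± 0.11 (adjusted p = 0.0195). For Kmt2c, Crebbp and Smarca2 all 3 cKO libraries, the one labelled replicate 1 included, lay above WT at 48 h. The mean level of the whole list at 48 h, set against the WT mean, was 0.20, 0.16 and 0.13 on the log2 scale in cKO replicates 1 to 3 and -0.09 to 0.04 in WT.

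Enzymes of cholesterol biosynthesis rose over time in both genotypes, 19 of 21 in WT and 18 of 21 in cKO, with a median change of 2.94 on the log2 scale in WT and 2.28 in cKO. No member passed the interaction test with 12 libraries, although 20 of 21 values were below 0 and the median was -0.47 (-0.29 without the 48 h library of cKO replicate 2). At an unadjusted p under 0.05 there were 7, all negative (6.93% of all tested genes), and DESeq2 called 5. With 10 libraries 10 of 21 were called, all negative (3.34% of all tested genes). They were Nsdhl, Acat2, Mvd, Pmvk, Fdps, Fdft1, Dhcr7, Hmgcs1, Lss and Ebp. The list's level at 48 h, against the WT mean, was -0.23, -0.86 and -0.70 in cKO replicates 1 to 3, and between -0.05 and 0.07 in WT. Hmgcs1, which makes the precursor of mevalonate, shows the pattern. It stood at 39.0, 42.3 and 51.5 CPM across WT and 38.8, 35.2 and 34.8 CPM across cKO at 0 h, and at 612, 615 and 679 CPM across WT and 507, 295 and 321 CPM across cKO at 48 h. All cKO libraries were below WT at both times, and at 48 h the library labelled cKO replicate 1 lay between WT and the other cKO libraries. The interaction was -0.47 ± 0.23 (edgeR adjusted p = 0.311) with 12 libraries and -0.71 ± 0.14 (adjusted p = 0.0189) with 10. Mvd, which decarboxylates mevalonate diphosphate, held 73.4, 75.3 and 79.0 CPM across WT and 57.3, 30.6 and 39.7 CPM across cKO at 48 h. Its interaction was -0.92 ± 0.23 (adjusted p = 0.0931) with 12 libraries and -1.09 ± 0.15 (adjusted p = 0.00527) with 10. Sqle, the squalene epoxidase, did not pass in either fit, with -0.48 ± 0.32 (adjusted p = 0.477) and -0.47 ± 0.26 (adjusted p = 0.276).

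The window before the start of Hmgcs1 is shown because sterol enzymes are known targets of sterol response element binding proteins and it is the only sterol list window that held a match. RefSeq promoter windows (GRCm38.p6, 250 bases before to 50 after each start) were found for 16 of the 21 sterol genes, as 19 windows. The sterol response element was searched as TCACNCCAC on both strands and was in 1 of the 19 windows, against 1.24% of 32851 windows of all genes. The 250 bases before the start (chr13:119690101-119690350, plus strand) are given with the match, on the strand of the gene and beginning 137 bases before the start, in capitals.
Hmgcs1: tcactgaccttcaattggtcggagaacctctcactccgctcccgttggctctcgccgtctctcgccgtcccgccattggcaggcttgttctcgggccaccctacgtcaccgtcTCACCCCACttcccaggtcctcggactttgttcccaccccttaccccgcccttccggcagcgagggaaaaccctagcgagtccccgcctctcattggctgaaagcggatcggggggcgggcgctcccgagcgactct
The CCAAT box, the site of nuclear factor Y, was in 15 of the 19 sterol windows (78.9%), against 37.4% of all windows. A match of letters is a description and not a site of binding.

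The regulators of sterol synthesis gave fewer calls. With 12 libraries none of 14 members of the list of sterol control and uptake passed, and DESeq2 called 2. An unadjusted p under 0.05 was held by 5 of the 14 (16.7% of all tested genes). With 10 libraries 3 were negative (3.34% of all tested genes): Insig1, Scarb1 and Srebf1. Insig1, which retains the sterol sensor in the endoplasmic reticulum, had -0.87 ± 0.14 (edgeR adjusted p = 0.00816). Scarb1, a lipoprotein receptor, had -0.93 ± 0.14 (adjusted p = 0.00737) and Srebf1 had -0.44 ± 0.11 (adjusted p = 0.0311). Srebf2, the transcription factor of the sterol genes, did not pass, with -0.24 ± 0.13 (adjusted p = 0.266). Of 10 tested genes of the liver X receptors, their targets and sterol storage, 1 was called in the 10-library fit, Lpcat3, a phospholipid acyltransferase, with -0.57 ± 0.15 (adjusted p = 0.041).

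With 12 libraries edgeR called none of 17 genes of fatty acid synthesis (5 at an unadjusted p under 0.05, 2 with DESeq2), and the median of -0.21 moved to -0.094 without the 0 h library of WT replicate 1, -0.12 without the 48 h library of WT replicate 3, -0.33 without that labelled cKO replicate 1, and -0.11 and -0.13 without those of cKO replicates 2 and 3. With 10 libraries 6 were called, all negative (3.34% of all tested genes): Scd1, Scd2, Elovl6, Fasn, Acly and Acss2. The 5 at an unadjusted p under 0.05 with 12 libraries were all negative too, against 6.93% of all tested genes. Scd2, a stearoyl-CoA desaturase, stood at 83.5, 105.7 and 109 CPM across WT and 100.2, 133 and 117 CPM across cKO at 0 h, and at 1204, 1271 and 1328 CPM across WT and 838, 475 and 597 CPM across cKO at 48 h. The groups overlapped at 0 h, all cKO libraries were lower at 48 h, and the library labelled replicate 1 was the least so. The interaction was -1.23 ± 0.23 (edgeR adjusted p = 0.0589) with 12 libraries and -1.57 ± 0.17 (adjusted p = 0.0018) with 10. Scd1, its relative, held 100.2, 83.2 and 113 CPM across WT and 39.2, 13.9 and 19.9 CPM across cKO at 48 h. Scd1 was already lower in each cKO library at 0 h, at 10.3 to 10.6 CPM against 12.5 to 23.0 CPM across WT. Acly, which makes cytosolic acetyl-CoA, had -0.38 ± 0.14 (adjusted p = 0.187) with 12 libraries and -0.51 ± 0.12 (adjusted p = 0.0267) with 10. Elovl6, an elongase, had -1.25 ± 0.14 (adjusted p = 0.0018) with 10.

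Glycolysis genes rose over time, and their interactions lay on 1 side of 0 in the 12-library fit. All 20 members rose in WT and 19 of 20 in cKO, and all 20 interactions were below 0, with a median of -0.45, but none passed the test. Of the 20, 13 had an unadjusted p under 0.05 in the negative direction (6.93% of all tested genes). DESeq2 called 10, beside 316 positive and 133 negative calls among the 10958 genes it tested. With 10 libraries 7 of 20 were called, all negative (3.34% of all tested genes): Hk2, Tpi1, Ldha, Pgam1, Pkm, Gpi1 and Aldoa. Hk2, the hexokinase that traps glucose, stood at 2.77, 2.06 and 1.68 CPM across WT and 3.41, 3.81 and 3.64 CPM across cKO at 0 h, and at 237, 269 and 250.7 CPM across WT and 196, 150 and 212 CPM across cKO at 48 h. All cKO libraries were above WT at 0 h and below it at 48 h, and the interaction was -1.18 ± 0.22 (edgeR adjusted p = 0.0589) with 12 libraries and -1.26 ± 0.25 (adjusted p = 0.0182) with 10. Tpi1, triose phosphate isomerase, stood at 1221, 1251 and 1209 CPM across WT and at 934, 718 and 970 CPM across cKO at 48 h, with -0.69 ± 0.13 (adjusted p = 0.0589) and -0.73 ± 0.14 (adjusted p = 0.0172). Unlike the sterol list, the library labelled cKO replicate 1 was not the closest to WT here. At 48 h the glycolysis level of cKO replicates 1 to 3 stood -0.38, -0.62 and -0.21 from the WT mean on the log2 scale. Glycolytic genes such as Ldha and Tpi1 have many processed pseudogenes, which can share their reads, so their values carry that uncertainty.

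The ATF4 stress response, the genes of amino acid supply and stress control that the factor ATF4 switches on, gave no call in 1 fit and 12 in the other. With 12 libraries 27 of 33 interactions were above 0, the median was 0.38 and none was called. DESeq2 called 1, and 3 had an unadjusted p under 0.05, all positive, a share near the 9.78% of all tested genes. The 12-library median was 0.20 without the 48 h library of either cKO replicate 2 or 3, and 0.69 without that labelled cKO replicate 1. With 10 libraries 12 of 33 were called, all positive (3.53% of all tested genes), and the median was 0.70. The level of the list at 48 h against the WT mean was 1.15 and 1.26 on the log2 scale in cKO replicates 2 and 3 and -0.85 in the library labelled cKO replicate 1, outside the WT range of -0.33 to 0.22 on the other side. At 0 h all 3 cKO libraries lay between 0.08 and 0.16. Pck2, the mitochondrial phosphoenolpyruvate carboxykinase, stood at 20.3, 19.7 and 14.8 CPM across WT and 18.9, 16.3 and 18.2 CPM across cKO at 0 h, and at 39.1, 58.1 and 53.4 CPM across WT and 21.9, 135 and 147 CPM across cKO at 48 h. The library labelled cKO replicate 1 thus ended below every WT library and the other cKO libraries above all of them. The interaction was 1.05 ± 0.63 (edgeR adjusted p = 0.427) with 12 libraries and 1.57 ± 0.22 (adjusted p = 0.00577) with 10. Ddit3, the stress factor CHOP, stood at 10.5, 17.5 and 15.6 CPM across WT and at 8.72, 47.6 and 48.1 CPM across cKO at 48 h, and had 1.57 ± 0.25 (adjusted p = 0.00816) with 10 libraries. Atf5, a related factor, held 10.9, 14.9 and 12.9 CPM across WT and 8.69, 49.4 and 50.9 CPM across cKO at 48 h. Sesn2, an inhibitor of mTORC1 that is also a p53 target, had 1.91 ± 0.32 (adjusted p = 0.00921) with 10 libraries. The amino acid carriers Slc3a2 and Slc7a1 and the serine enzymes Psat1 and Psph were among the other positive members, whereas Asns, Chac1 and Trib3, well known members, did not pass in either fit.

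The window before the start of Pck2 is shown because Pck2 passed the 10-library test, has its values above and holds the composite element of ATF4. Windows of Asns, Chac1 and Trib3, which did not pass, hold the element too. RefSeq windows (GRCm38.p6) were found for 31 ATF4 list genes, as 38 windows, and the element, searched as TGATGNAA on both strands, was in 10 of them (26.3%), against 3.97% of all windows. Among the 11 called genes with a window, 2 held it. The 250 bases before the start (chr14:55540016-55540265, plus strand) are given with the match, on the opposite strand and beginning 103 bases before the start, in capitals.
Pck2: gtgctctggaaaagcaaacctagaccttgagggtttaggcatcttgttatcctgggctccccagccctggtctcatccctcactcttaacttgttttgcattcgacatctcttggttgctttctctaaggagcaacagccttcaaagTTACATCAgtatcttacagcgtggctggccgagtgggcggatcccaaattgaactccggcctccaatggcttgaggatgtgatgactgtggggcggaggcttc

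**Figure D4:**
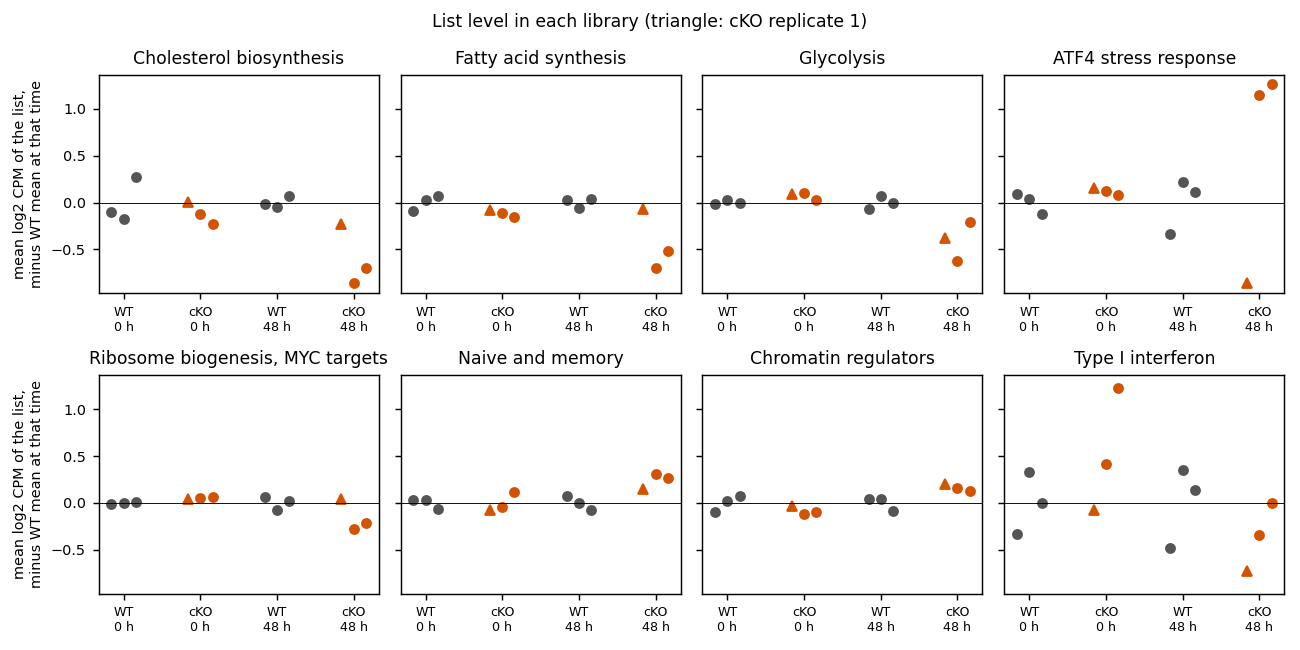
Mean log2 CPM of 8 gene lists in each library, minus the WT mean of the same time (vertical axis). Triangles are the libraries labelled cKO replicate 1. At 48 h those libraries lie near or inside WT for fatty acid synthesis and for ribosome biogenesis and other MYC targets, with the other cKO libraries for glycolysis and the chromatin regulators, and opposite to them for the ATF4 stress response, at -0.85 against 1.15 and 1.26.

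Genes of protein folding in the endoplasmic reticulum moved both ways. With 12 libraries none of 21 was called and DESeq2 called 1, while 6 had an unadjusted p under 0.05 (16.7% of all tested genes). With 10 libraries 7 were negative (3.34% of all tested genes) and 2 positive (3.53%). Creld2, an endoplasmic reticulum stress gene, held 46.2, 41.8 and 45.0 CPM across WT and 40.3, 30.4 and 31.1 CPM across cKO at 48 h, with an interaction of -0.96 ± 0.14 (edgeR adjusted p = 0.00577). The chaperones Hspa5 and Calr and the disulfide isomerases Pdia3 and Pdia6 were also negative. Herpud1 and Sel1l, which serve the removal of misfolded proteins, were positive, Herpud1 with 0.62 ± 0.11 (adjusted p = 0.0119). Of 20 heat shock genes 1 was negative, a share near the 3.34% of all tested genes: Hspe1, with -0.42 ± 0.11 (adjusted p = 0.0436).

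All 48 genes of a list of ribosome biogenesis and other MYC targets, which also holds polyamine and nucleotide enzymes, rose in both genotypes. None was called in the 12-library interaction by edgeR or by DESeq2, 13 had an unadjusted p under 0.05, 42 of 48 values were below 0 and the median was -0.20 (-0.13 without the 48 h library of cKO replicate 2). With 10 libraries 15 of 48 were called, all negative (3.34% of all tested genes), with a median of -0.27. Srm and Ppat, of polyamine and purine synthesis, were among them. The 13 at an unadjusted p under 0.05 with 12 libraries were all negative, against 6.93% of all tested genes. Bop1, a ribosome assembly factor, held 244, 208 and 226 CPM across WT and 235, 148 and 164 CPM across cKO at 48 h, with an interaction of -0.72 ± 0.14 (edgeR adjusted p = 0.0172). Nolc1, a nucleolar phosphoprotein, held 688, 619 and 677 CPM across WT and 663, 441 and 502 CPM across cKO. For both, the library labelled cKO replicate 1 was inside the WT range. No ribosomal protein gene of 79 was called in either fit or by DESeq2, with medians of 0.0058 and 0.0655. Of those 79, 1 had an unadjusted p under 0.05 in the 12-library fit, beside 16.7% of all tested genes.

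Enzymes that modify transfer RNA gave 6 negative calls among 54 with 10 libraries (3.34% of all tested genes) and none with 12. With 12, DESeq2 also called none, and 11 had an unadjusted p under 0.05, all negative (6.93% of all tested genes). Adat3, of the adenosine deaminase that makes wobble inosine, had -1.05 ± 0.28 (edgeR adjusted p = 0.0427), and Nsun2, a cytosine methyltransferase, -0.43 ± 0.10 (adjusted p = 0.0276). Dus1l, Ctu2, Qtrt1 and Pus1 were the others. Trmt6, the partner of TRMT61A, rose from 43.5 to 52.4 CPM across the 0 h libraries to 90.4 to 109 CPM across the 48 h libraries, with an interaction of -0.01 ± 0.13 (adjusted p = 0.979) with 12 libraries and -0.004 ± 0.13 with 10. The groups overlapped at both times. Of 23 cytosolic transfer RNA synthetases and scaffold proteins of their complex, 3 were negative with 10 libraries (3.34% of all tested genes). They were Farsa, Hars and Kars. With 12 libraries none was called, and 3 had an unadjusted p under 0.05, all negative (6.93% of all tested genes).

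Cell cycle genes rose strongly in both genotypes, and few passed the interaction test. In the S phase list all 50 members rose in WT and in cKO, and 4 of 50 were negative with 10 libraries (3.34% of all tested genes). With 12 libraries edgeR called none and DESeq2 called 2. There 41 of 50 values were below 0, with a median of -0.17, and 10 had an unadjusted p under 0.05, all negative (6.93% of all tested genes). Ccne1, cyclin E1, held 97.4, 93.7 and 101.6 CPM across WT and 88.1, 65.4 and 65.4 CPM across cKO at 48 h, with -0.92 ± 0.14 (edgeR adjusted p = 0.00705). Gins2, of the replicative helicase, Dut and Chaf1b were the others called in the S phase list with 10 libraries. In the G2 and mitosis list 42 of 44 rose in each genotype, and 2 were negative with 10 libraries, a share near the 3.34% of all tested genes: Cdc20, an activator of the anaphase-promoting complex, with -0.90 ± 0.16 (adjusted p = 0.0117), and Ncaph, of condensin. None of the 44 was called with 12 libraries, where 9 had an unadjusted p under 0.05, as did 16.7% of all tested genes, and DESeq2 called 2. Mki67, the proliferation marker, had 0.06 ± 0.19 (adjusted p = 0.921) with 12 libraries, at 842 to 1009 CPM across WT and 928 to 965 CPM across cKO at 48 h. Of 41 nuclear genes of oxidative phosphorylation, 6 were negative with 10 libraries (3.34% of all tested genes) and none with 12. Among the 6 were Sdhd with -0.61 ± 0.12 and Uqcrfs1 with -0.53 ± 0.11 (adjusted p = 0.0205). With 12 libraries DESeq2 called 2, and 6 had an unadjusted p under 0.05, all negative (6.93% of all tested genes).

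Effector and activation genes that define cytotoxic T cells mostly did not pass. Gzmb, granzyme B, stood at 3423, 4156 and 4289 CPM across WT and at 2616, 1808 and 2461 CPM across cKO at 48 h, and at 2.30 to 5.11 CPM at 0 h. All cKO libraries were lower at 48 h, but the interaction was -0.35 ± 0.26 (edgeR adjusted p = 0.527) with 12 libraries and -0.65 ± 0.23 (adjusted p = 0.105) with 10. Ifng, interferon gamma, stood at 329.7, 361 and 448 CPM across WT and 238, 124 and 188 CPM across cKO at 48 h, and at 0.239 to 1.28 CPM at 0 h, where few reads set the error. Its interaction was -0.41 ± 0.62 (adjusted p = 0.783) with 12 libraries. Prf1, Tnf, Il2, Il2ra, Cd69 and Myc did not pass in either fit, and their values ran from -0.58 ± 1.21 for Il2 to 0.24 ± 0.15 for Prf1 with 12 libraries. Of 30 effector genes tested with 12 libraries, none was called and DESeq2 called 1. Of the 30, 4 had an unadjusted p under 0.05, beside 16.7% of all tested genes. Of the 31 tested with 10 libraries 1 was positive and 1 negative, shares near the 3.53% and 3.34% of all tested genes. Klrd1, the CD94 receptor chain, was positive with 0.88 ± 0.19 (adjusted p = 0.022), and Eomes, a T-box factor, negative with -0.80 ± 0.17 (adjusted p = 0.0205). Of 27 activation genes 2 were positive with 10 libraries (3.53% of all tested genes): Ccl3, a chemokine, and Egr1, an immediate early factor. Ccl3 had 2.50 ± 0.48 (adjusted p = 0.0161), from 0.359 to 3.65 CPM at the start to 206 to 280 CPM at 48 h, where the groups overlapped. At 0 h it had 125, 41 and 102 reads in WT and 44, 24 and 12 in cKO. With 10 libraries its cKO minus WT difference was -2.25 on the log2 scale at 0 h and 0.25 at 48 h. The interaction of Ccl3 therefore lay mainly in low 0 h levels. No member of the inhibitory receptor list was called in either fit or by DESeq2. In the 12-library fit 5 of 15 had an unadjusted p under 0.05, 3 positive and 2 negative, beside 16.7% of all tested genes.

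Smaller groups gave few calls in the 10-library fit, which called 3.53% of all tested genes positive and 3.34% negative. Of 16 genes of CD8 and T cell receptor identity, the adaptor Lcp2 was positive, with 0.37 ± 0.10, and the surface protein Thy1 negative, with -0.41 ± 0.10 (edgeR adjusted p = 0.0269). Of 24 p53 targets, Plk2, a polo-like kinase, was positive beside Sesn2, with 1.71 ± 0.48 (adjusted p = 0.0487). Calr was the only 1 of 14 genes of MHC class I presentation called, and Gbp8 the only 1 of 15 guanylate-binding proteins.

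Type I interferon genes had the lowest median of the lists described, -1.01 with 12 libraries and -1.12 with 10. With 12 libraries 33 of 35 values were below 0 and none was called, while DESeq2 called 2. In the negative direction 19 had an unadjusted p under 0.05 (6.93% of all tested genes). With 10 libraries 5 of 35 were called, all negative (3.34% of all tested genes): Ifi44, Isg15, Bst2, Eif2ak2 and Stat2. Isg15, an interferon-induced ubiquitin-like protein, stood at 11.2, 24.3 and 19.2 CPM across WT and at 16.3, 29.2 and 61.7 CPM across cKO at 0 h, and at 20.5, 58.1 and 54.9 CPM across WT and 10.7, 19.2 and 29.1 CPM across cKO at 48 h. The groups overlapped at both times, and cKO replicate 3 at 0 h was the highest of all. Its interaction was -2.20 ± 0.59 (edgeR adjusted p = 0.0429) with 10 libraries. Bst2, tetherin, held 85.8, 119 and 121 CPM across WT and 77.1, 67.9 and 84.4 CPM across cKO at 48 h, with -1.19 ± 0.26 (adjusted p = 0.0227). Cxcl10, a chemokine induced by interferon, had -2.48 ± 0.61 (adjusted p = 0.033). The list's level at 0 h against the WT mean was 1.23 in cKO replicate 3, 0.41 in replicate 2 and -0.08 in the library labelled replicate 1, and the median interaction was -0.65 without the 0 h library of cKO replicate 3.

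**Figure D5:**
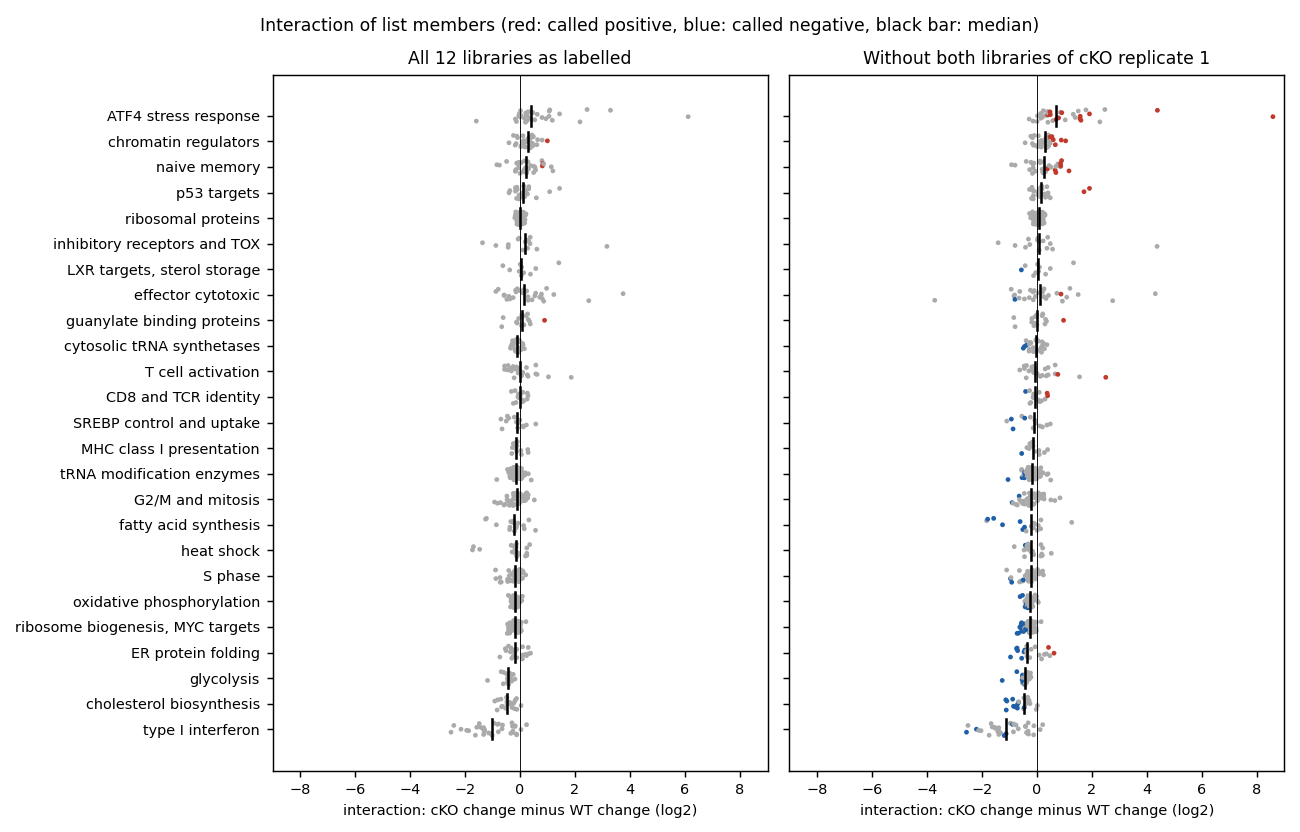
Interaction (cKO change minus WT change, log2, horizontal axis) of every tested member of 25 gene lists, with all 12 libraries on the left and without both libraries labelled cKO replicate 1 on the right. Red points were called positive and blue points negative, and black bars are medians. With 12 libraries the median of the type I interferon list is -1.01 and that of the ATF4 list 0.38, with few coloured points, and with 10 libraries they are -1.12 and 0.70.

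Among called genes with a mean of 5 CPM or more, the highest 5 interactions of the 10-library fit were those of Ccl3, P2rx7, Zbtb7b, Ptprj and Sesn2. P2rx7, an ion channel gated by extracellular ATP, held 7.97, 8.60 and 14.6 CPM across WT and 8.17, 6.66 and 5.26 CPM across cKO at 0 h, and 1.88, 2.39 and 1.79 CPM across WT and 2.66, 6.29 and 5.48 CPM across cKO at 48 h. It fell in WT and did not pass in cKO, an interaction of 2.34 ± 0.39 (edgeR adjusted p = 0.00839). Zbtb7b, which specifies helper T cells, had 2.21 ± 0.46 (adjusted p = 0.0203), with 13.4 CPM in replicate 2 and 16.6 CPM in replicate 3 of cKO at 48 h, against 6.27 to 7.13 CPM across WT and 5.17 CPM in the library labelled cKO replicate 1. The lowest 5 among called genes at that level were Cxcl10, Isg15, Wnt10b, Gm4951 and E2f8. E2f8, a repressor of the E2F family, stood at 0.367 to 0.604 CPM across WT at 0 h against 1.87 CPM in replicate 2 and 1.58 CPM in replicate 3 of cKO, and at 51.6 to 63.0 CPM in all 48 h libraries. Its interaction of -1.92 ± 0.23 (adjusted p = 0.00228) therefore lay in the 0 h levels. Wnt10b, a secreted Wnt ligand, had the same form, with 0.117 to 0.254 CPM in WT and 0.461 to 1.07 CPM in cKO at 0 h, 33.0 to 38.1 CPM in all libraries at 48 h and -2.17 ± 0.45 (adjusted p = 0.0195).

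Of the B cell markers all 16 fell over time in WT and 15 of 16 in cKO. All 16 B cell markers had an interaction above 0 with 12 libraries, with a median of 0.42 (0.21 without the 0 h library of WT replicate 3). None was called in either fit, and DESeq2 called 1. With 12 libraries 4 had an unadjusted p under 0.05, all positive (9.78% of all tested genes). The summed myeloid markers were 115 to 158 CPM across WT and 100 to 147 CPM across cKO at 0 h, and 41.6 to 52.3 CPM across WT and 40.7 to 49.8 CPM across cKO at 48 h. The mean log2 level of the tested myeloid markers, against the WT mean, was apart at 48 h instead. It was 0.622, 0.872 and 0.625 in cKO replicates 1 to 3 and -0.145 to 0.147 across WT, whereas the groups overlapped at 0 h. With 12 libraries 19 of 22 myeloid interactions were above 0, with a median of 1.26 (1.42 with 10 libraries). None was called, and 6 were positive at an unadjusted p under 0.05 (9.78% of all tested genes). Of the myeloid markers, S100a8 and S100a9, the calgranulins of neutrophils, were positive with 10 libraries. S100a9 had 36, 9 and 17 counts in WT and 101, 64 and 56 counts in cKO at 0 h, and no count in any WT library and 42, 73 and 51 counts in cKO at 48 h, so it was higher in every cKO library at both times. The natural killer and innate lymphoid markers summed to between 121 and 142 CPM at the start and to between 20 and 33.0 CPM at 48 h, with Ncr1 at 0 in all 48 h libraries. One of them, Cd7, which T cells also express, was positive, with 1.12 ± 0.20 (edgeR adjusted p = 0.0135). The helper and regulatory T cell markers, which include Ctla4 and Cd40lg that activated T cells also express, summed to 60.5 to 84.9 CPM across WT and 47.4 to 51.9 CPM across cKO at 0 h. At 48 h they summed to 478 to 565 CPM across WT and 288 to 354 CPM across cKO, so that every cKO sum was below every WT sum at both times. The mean log2 level of the tested members, against the WT mean, overlapped at 48 h. It was -0.35, -0.38 and 0.12 across cKO and -0.22 to 0.12 across WT. Cd4, the defining marker of the list, stood at 28.7, 20 and 25.7 CPM across WT and 14.5, 15.1 and 17 CPM across cKO at 0 h. At 48 h the groups overlapped for Cd4, at 21, 16.3 and 18.7 CPM across WT and 15.9, 15.2 and 18.8 CPM across cKO. With 10 libraries 2 of 8 tested members were positive, Foxp3 and Zbtb7b, and none negative, and Ctla4 had an interaction of -0.80 without passing. With 12 libraries none was called, 3 being positive and 1 negative at an unadjusted p under 0.05. Foxp3, the factor of regulatory T cells, was at 5.75, 3.67 and 3.54 CPM across WT at 0 h. Every cKO library was below these, at 2.3, 2.86 and 3.5 CPM. At 48 h the groups overlapped, at 5.25, 4.28 and 8.02 CPM across WT and 7.13, 11.1 and 15.4 CPM across cKO. Its interaction was 1.62 ± 0.42 (adjusted p = 0.038) with 10 libraries. The sum of the erythroid and platelet markers lay between 20.1 and 108 CPM at the start and between 4.57 and 9.77 CPM later, with no call. That of stroma and endothelium was 174 to 198 CPM across WT and 188 to 200 CPM across cKO at 0 h. At 48 h it was 50.3 to 55.3 CPM across WT and 68.6 to 72.5 CPM across cKO, and no member was called. The sum of every cKO library, the one labelled replicate 1 included, was above that of every WT library. The mean log2 level of the tested members, against the WT mean, overlapped at 48 h instead. It was -0.21, -0.09 and 0.12 in cKO replicates 1 to 3 and -0.22 to 0.41 across WT. The list's median interaction was 0.002 with 12 libraries and 0.30 with 10. The part of these cells in the interactions above was not tested.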

How the data were processed

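The authors deposited unnormalised counts, whole numbers of reads for each of 16352 genes and 12 libraries, made from total RNA with a NEBNext Ultra kit, per the labels' protocols. The submitters' processing notes name fastp 0.20.1, FastQC 0.11.9, HISAT2 2.1.0, SAMtools 1.9, HTSeq 0.11.2 and the build GRCm39, with no settings or strand option, so a gene and its antisense or overlapping neighbour cannot be told apart. The RefSeq promoter windows are of another build, GRCm38.p6, and serve for sequence only.

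Columns were matched to libraries by the labels' descriptions. Replicates are numbered by title, and WT replicates 2 and 3 carry the numbers 3 and 6 in the column names and the matching line of the descriptions. The test of the counts was edgeR's (4.0.16, R 4.3.3): genes kept by filterByExpr (minimum count 10, minimum total 15), TMM factors from 0.956 to 1.07, 1 mean per group, the quasi-likelihood test with 8 residual degrees of freedom (6 without both libraries labelled cKO replicate 1), and Benjamini-Hochberg adjustment over all tested genes. Log2 CPM values of lists use a prior count of 2. SE is the absolute log2 value over the root of its F statistic. Counting error is near 10% at 100 reads. Counts of replicate libraries differed by more than sampling noise, so none was counted as a repeat. The scripts were tested on simulated data.

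The members and the gene lists were chosen with earlier results of these data known. Named genes were 16 fixed genes, up to 12 called genes with the highest and 12 with the lowest interaction at a mean of 5 CPM or more, up to 4 called members of each list by adjusted p, and up to 5 genes in each direction from the fit without the libraries labelled cKO replicate 1. The rule for list members was applied in both fits. Other members are named to complete a count. Alternatives were RLE and upper-quartile scaling, filters at a mean of 1 CPM or none, DESeq2 1.42.0, voom from limma 3.58.1, a replicate block, and leaving out libraries. Some genes that the rule names are not reported here.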

Additional observations from a re-analysis of the deposited data

Results flagged for a closer look

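Of the 14 genes called in the 12-library interaction, 13 are listed here because their change over time differed between WT and cKO by the test of that difference itself, edgeR's interaction term. The cKO change minus the WT change, on the log2 scale, was 4.46 for A530021J07Rik, 1.30 for Pou2af1, 0.99 for Kmt2a, 0.89 for Gbp8, 0.86 for Zbtb4, 0.85 for Itga4, 0.85 for Zfp831, 0.83 for S1pr1, 0.82 for Tmem71, 0.81 for Klf3, 0.65 for Pag1 and 0.54 for Lrch3. It was -0.89 for Galk1. The value of A530021J07Rik rests on 0 to 1 counts in the WT libraries at 48 h and depends on the prior count. No group held enough libraries for a check of single outlying values.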

How the results depend on the processing

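All 14 genes called with 12 libraries kept their direction under every alternative. The counts of positive and negative calls, 13 and 1, moved to 446 and 422 without both libraries of cKO replicate 1, to 97 and 25 with no filter on low counts and to 316 and 133 with DESeq2. They became 0 and 0 without both libraries of WT replicate 2, WT replicate 3, cKO replicate 2 or cKO replicate 3, with 1894, 1321, 1174 and 1632 genes at an unadjusted p under 0.05. They were 9 and 2 without both of WT replicate 1, 17 and 2 with voom, 12 and 1 with RLE, 16 and 1 with upper-quartile scaling and 13 and 1 with the filter at a mean of 1 CPM. Leaving out both libraries of WT replicate 1, WT replicate 2, cKO replicate 2 or cKO replicate 3 was chosen after the data were seen. Leaving out 1 library at a time gave 0 to 522 positive and 0 to 445 negative calls. With a replicate block the counts were 16 and 21, 43.2% of them positive, and 11 of the 14 genes were among them. With the block and without cKO replicate 1 they were 424 and 399. The 12-library fit did not take the numbers to pair samples, although several values followed the numbers at both times. Each of the 6 libraries at 0 h correlated best with its own number (0.034 to 0.15, with 1 of 6 over 0.1). Every correlation between different numbers was negative (-0.095 to -0.0014). Among WT libraries only those of replicate 3 lacked Uty reads. Among cKO libraries only those of replicate 1 kept Trmt61a near the WT level. The p-values of the 12-library fit thus leave out a pairing that may be present. The cause of the shifts in the counts of calls was not tested. Of the values of named genes under an alternative, 2223 kept their side of the threshold, 270 passed it and 182 lost it. With 3 libraries a group, a missed threshold does not show equal change.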
